A study of Mus musculus with 4 samples.

Results

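The genes described here are the fatty acid elongases Elovl1, Elovl2, Elovl3, Elovl5, Elovl6 and Elovl7 and the desaturases Fads1, Fads2, Fads3 and Scd2, measured in the liver of diet-induced obese (DIO) mice after intranasal GALP. They were chosen by name, as all non-control probes that carry one of these gene names on the array, which gave 10 of 26582 genes and 13 probes (8 for elongases and 5 for desaturases). GALP (galanin-like peptide) is a hypothalamic neuropeptide that binds galanin receptors, and the study asked which liver genes respond to it in obese animals. All 16 mice were male C57BL/6J, bought at an age of 8 weeks, and became obese on a high-fat diet for 14 weeks, with a weight of at least 40 g. The treated mice received porcine GALP in saline with 5% α-cyclodextrin into the nose, once a day for 11 days, in a volume of 2 µL at a labelled 1 nmol, and the controls received saline. The liver RNA was pooled, with 4 mice in the GALP pool of the greater weight loss group, 4 in the GALP pool of the less weight loss group and 8 saline mice in a common control. The 4 arrays, all on 1 slide, each compared a GALP pool with this control, and every pool was run in both dye orientations (Cy3 and Cy5). Single mice cannot be told apart within a pool, and the spread between control mice enters no value below.

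Elongases and desaturases remodel fatty acids at the endoplasmic reticulum after the main chain has been made. An elongase joins a unit from malonyl-CoA to an acyl-CoA in the first and rate-limiting step of a cycle that lengthens the chain, and a reductase, a dehydratase and a second reductase complete the cycle. A desaturase places a double bond at a fixed position with electrons passed on by cytochrome b5. Elovl6 and the stearoyl-CoA desaturases act on the products of de novo lipogenesis, whereas Elovl2, Elovl5, Fads1 and Fads2 convert the essential dietary fatty acids to polyunsaturated fatty acids such as arachidonic and docosahexaenoic acid. In the liver many of these genes are known targets of SREBP-1c, a transcription factor driven by insulin, and of the oxysterol receptor LXR.

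A value is a log2 ratio of GALP over control, where 0 means equal signals, and the mean ± SD is over n = 2 pools, each the average of its arrays. The arrays are named below by their pool and by the dye of the GALP sample. For genes with several probes, probe 1 has the highest mean signal and stands for the gene. The rule of the methods, read strictly, needed the same sign on the 4 arrays, p under 0.01 from the Feature Extraction software on each of them, and in each pool a fold above 1.5 or below 0.75. The paper gives the p-value and the folds and takes changes common to both GALP groups. It does not say on how many arrays p had to pass. This p-value comes from the error model of the scanner software and compares extracts within an array, not treatments. The ratios were also tested against 0 with limma, two-sided, with Benjamini-Hochberg adjustment over 41037 probes.

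Elovl3 was lower in both GALP pools and was the only one of the 13 probes that was called. By this rule 54 of the 41037 probes on the array were lower (0.132%) and 24 were higher (0.0585%), and none of the 13 was higher. The probes of Elovl2, Elovl5 and Elovl6 had ratios below 0 on all 4 arrays without reaching the rule, and so did that of Fads2. The ratios of Elovl1, Fads1 and Scd2 lay on both sides of 0. Elovl7 and Fads3, both with signals near background, had mean ratios above 0 on probe 1.

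**Figure D1:**
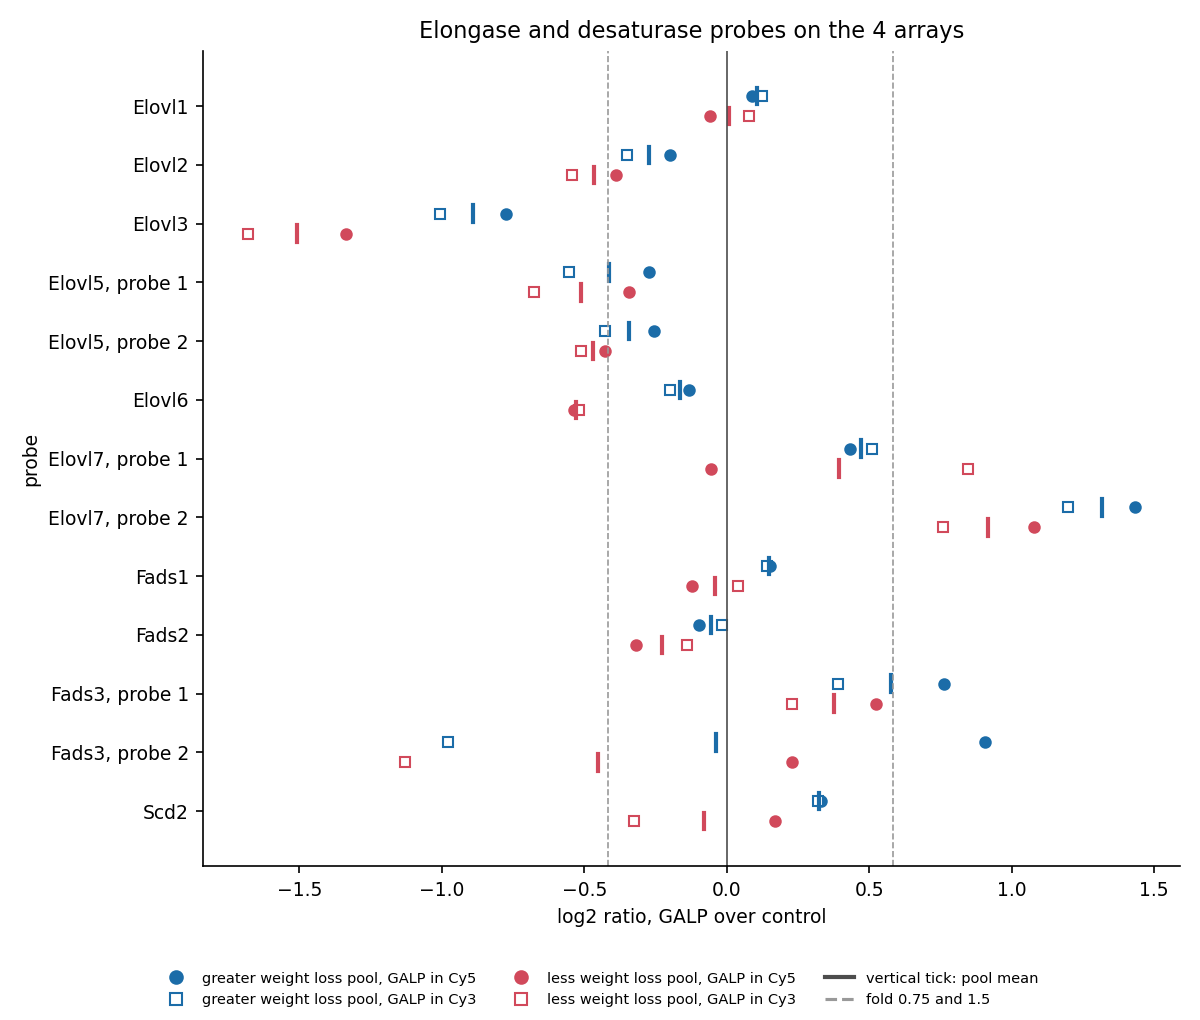
Log2 ratio of GALP over control (horizontal axis) for each of the 13 probes (vertical axis) on the 4 arrays, blue for the greater and red for the less weight loss pool, with filled circles where GALP carried Cy5 and open squares where it carried Cy3. Vertical ticks are pool means, and the dashed lines mark folds of 0.75 and 1.5. Elovl3 is the only probe with all 4 arrays beyond the lower line, and probe 2 of Fads3 changes side with the dye.

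Elovl3 lengthens saturated and monounsaturated fatty acids to very long chains and is known from brown fat, skin and the liver, where it has a daily rhythm. Its probe lies on chromosome 19 from 46209762 to 46209821 of mm9, and no annotation of exons or UTRs comes with the probes. The deposited probe sequence holds the letters AATAAA, the polyadenylation signal found near the 3′ end of transcripts. A match of letters does not show where in the transcript the probe lies. These 30 of its 60 bases hold the match, in capitals:
Elovl3: tggtaggcgcttAATAAAtgtcttttacag
These letters were present in 4.78% of all probes and in 1 of the 13 described here.

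The Elovl3 signal of the GALP pools was 351 and 273 on the greater Cy5 and greater Cy3 arrays and 221 and 149.7 on the less Cy5 and less Cy3 arrays. The control pool gave 600.4, 548, 558 and 479.7 on the same arrays. Every GALP value was below every control value, all 8 channels were well above background, and the less weight loss pool was lower than the greater one in both dye orientations. The log2 ratios were -0.77 and -1.01 in the greater and -1.34 and -1.68 in the less weight loss pool, with Feature Extraction p-values of 4.17e-04, 8.62e-06, 3.41e-08 and 2.37e-10. The pool folds were 0.540 and 0.351, and the mean log2 ratio was -1.20 ± 0.44 (SD, n = 2). Of 11397 genes with signal on every array, 60 (0.526%) had a lower mean ratio. The limma adjusted p was 0.485, and the unadjusted p was 0.0741. Over the 41037 probes the smallest limma adjusted p was 0.374 and 0.0% of the probes passed 0.05.

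The call of Elovl3 was made in each pool on its own as well. In the greater weight loss pool alone the rule called 1 of the 13 probes lower, against 0.395% of all probes, and 0 higher, against 0.297%. In the less weight loss pool alone it called 1 lower, against 0.366%, and 0 higher, against 0.234%. With background correction by normexp and loess normalization the mean log2 ratio of Elovl3 was -0.54, a smaller decrease, and the call was kept. The p-values in that call were still those of the deposited processing, so only the fold and the sign could fail. The control pool itself is the same RNA on all arrays, and after each array was scaled to a common median, its Elovl3 signal had an SD of 0.13 on the log2 scale, against a median of 0.143 over the 14445 probes well above background in every channel.

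**Figure D2:**
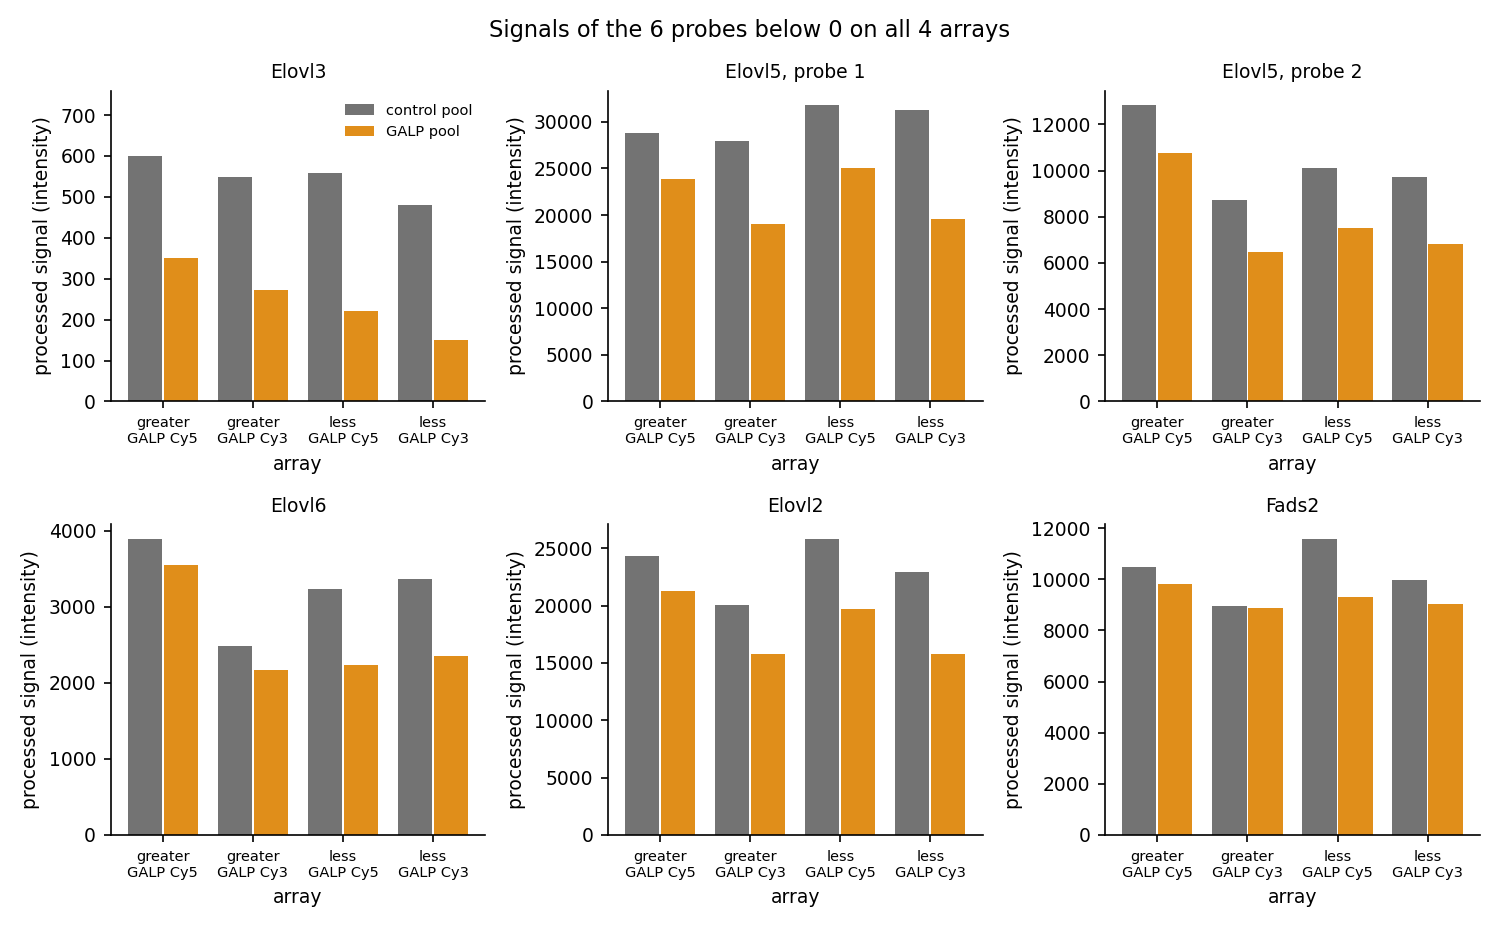
Processed signal (vertical axis, intensity on a linear scale from 0, background-subtracted and dye-normalized by the authors' software) of the control pool in grey and the GALP pool in orange on each of the 4 arrays (horizontal axis) for the 6 probes with a ratio below 0 on every array. For Elovl3 the GALP bars stand between 149.7 and 351 and the control bars between 479.7 and 600.4, whereas for Fads2 the bars of an array are close to each other. Heights cannot be compared between probes.

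Elovl5 elongates polyunsaturated fatty acids of medium length, and its ratios came from 2 probes whose starts lie 605 bases apart on chromosome 9, at 77832205 and 77831600 of mm9. On probe 1 the control signals were 28842, 27910.3, 31773 and 31236 on the greater Cy5, greater Cy3, less Cy5 and less Cy3 arrays, and the GALP signals were 23884, 19022, 25037 and 19556. Every GALP value of probe 1 was again below every control value. The log2 ratios were -0.27, -0.55, -0.34 and -0.68, which gave pool folds of 0.751 and 0.702. The greater weight loss pool thus lay just outside the 0.75 that the rule asks for, with Elovl3 as the nearest probe inside at 0.540. The p-value of the rule was not met either, since the Feature Extraction p-values of probe 1 were 0.185, 0.00850, 0.0959 and 0.00153, under 0.01 on 2 of 4 arrays, and those of probe 2 were under 0.01 on 0 of 4. The mean log2 ratio was -0.46 ± 0.07 on probe 1 and -0.40 ± 0.09 on probe 2 (SD, n = 2), where the arrays gave -0.25, -0.43, -0.43 and -0.51. The probes had the same sign on 4 of 4 arrays and differed by -0.06 in their means. On probe 2 the groups overlapped across arrays, with a GALP signal of 10752 on greater Cy5 and a control signal of 8723 on greater Cy3.

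Elovl5 passed limma only where the background correction and the normalization were both replaced. Its probes were the 2 of the 13 that were lower at an unadjusted limma p under 0.05, at 0.0210 and 0.0369, a mark that 6.6% of all probes reached downward. The adjusted limma p values were 0.380 and 0.411. With normexp and loess both probes passed, each with a limma adjusted p of 0.0443, where 0.129% of all probes were called lower, and the mean log2 ratios were then -0.53 and -0.46. No other member passed with that processing, and Elovl3 had a limma adjusted p of 0.0553. The arrays with GALP in Cy3 gave lower ratios for Elovl5 than those with GALP in Cy5. The mean difference between dye orientations was 0.31 on probe 1 and 0.13 on probe 2, against a median absolute difference of 0.175 over the probes with signal in every channel. With the Cy3 arrays alone the rule called probe 1 of Elovl5 lower as well, but not probe 2.

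Elovl6 lengthens palmitate to stearate, and Elovl2 carries polyunsaturated fatty acids on toward docosahexaenoic acid. For Elovl6 the control signals were 3894, 2485, 3235 and 3363 and the GALP signals 3552, 2166, 2229 and 2350.4, in the order of arrays used above. The GALP signal was below the control signal of its own array each time, but the values of the groups overlapped across arrays. The log2 ratios were -0.13 and -0.20 in the greater and -0.54 and -0.52 in the less weight loss pool, so the pools stood apart by more than the arrays within a pool. The mean was -0.35 ± 0.26 (SD, n = 2), with pool folds of 0.892 and 0.694. For Elovl2 the control signals were 24366, 20067, 25826 and 22936 and the GALP signals 21236, 15742, 19725 and 15738. Its log2 ratios were -0.20, -0.35, -0.39 and -0.54, with pool folds of 0.827 and 0.724 and a mean of -0.37 ± 0.14, and its GALP and control signals overlapped across arrays too. The less weight loss pool was under 0.75 for both genes and the greater was not. The limma adjusted p was 0.676 for Elovl6 and 0.487 for Elovl2.

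The remaining elongase with signal on every array, Elovl1, makes very long saturated and monounsaturated chains for ceramides. Its log2 ratios were 0.09, 0.12, -0.06 and 0.08, with a mean of 0.06 ± 0.07 (SD, n = 2). They lay on both sides of 0, and the limma adjusted p was 0.702. Over the 6 elongases the median log2 ratio was -0.36, with values from -1.20 to 0.43, and 4 of the 6 were below 0 on all 4 arrays.

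Among the desaturases, Fads1 (delta-5 desaturase) and Fads2 (delta-6 desaturase) insert double bonds into polyunsaturated fatty acids. Their genes are neighbours of Fads3 on chromosome 19. Fads2 had control signals of 10498, 8963, 11587 and 9956 and GALP signals of 9817, 8866, 9298 and 9046. Its log2 ratios of -0.10, -0.02, -0.32 and -0.14 were all below 0, with a mean of -0.14 ± 0.12 (SD, n = 2) and a limma adjusted p of 0.702. Across arrays its groups overlapped. When each array was centred on its median, 1 of these ratios moved to the other side of 0. Fads1 had control signals of 12906, 11708, 13723 and 12001 and GALP signals of 14334, 12927, 12617 and 12320.4. Its log2 ratios were 0.15, 0.14, -0.12 and 0.04, with a mean of 0.05 ± 0.13, and its groups overlapped.

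Scd2 is an isoform of stearoyl-CoA desaturase, which makes monounsaturated fatty acids, and is best known from the brain. Its control signals were 522, 420.5, 456 and 487, and its GALP signals were 657, 525, 513 and 389. The log2 ratios were 0.33, 0.32, 0.17 and -0.33, so 3 arrays lay above 0 and the less Cy3 array below, and the mean was 0.12 ± 0.29 (SD, n = 2). The median log2 ratio of the 4 desaturases was 0.09, with values from -0.14 to 0.48.

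Elovl7, an elongase of saturated acyl chains, and Fads3, which desaturates sphingoid bases, were measured near background. On probe 1 of Elovl7 the control signals were 71.5, 59.97, 83.5 and 44.7 and the GALP signals 96.5, 85.4, 80.4 and 80.2. The GALP signal was above the control on 3 arrays and below on the less Cy5 array, with log2 ratios of 0.43, 0.51, -0.05 and 0.85 and a mean of 0.43 ± 0.05 (SD, n = 2). Within the less weight loss pool the arrays lay further apart than the 2 pool means did. The 2 Elovl7 probes were the 2 of the 13 that were higher at an unadjusted limma p under 0.05, at 0.0164 and 0.0439, against 4.99% of all probes upward. Without the less Cy3 array, the mean of probe 1 was 0.21.

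Probe 2 of Elovl7, whose start lies 738 bases from that of probe 1, had log2 ratios of 1.43, 1.20, 1.08 and 0.76 and a mean of 1.12 ± 0.28 (SD, n = 2). It was the probe of the 13 that met the fold and direction on all arrays but not the p-value. The paper lists Elovl7 among its upregulated genes, without naming a probe. Without the p-value the rule gave 1 of the 13 probes higher, against 0.375% of all probes, and 1 lower, Elovl3, against 0.877%. The control signals were 16.0, 11.1, 24.6 and 265 and the GALP signals 43.3, 25.5, 52.0 and 449. On the less Cy3 array both channels stood far above those of the other arrays, although the control is the same RNA throughout. The scaled control signal there was 18.0-fold the median of the other 3 arrays. Of 21297 probes whose control signal was not well above background on the other 3 arrays, 717 (3.37%) rose as much on this array. In the greater weight loss pool the control was not well above background on either array, and the GALP signal was so only on the greater Cy5 array. Its 43.3 there stood beside 38.3, the lowest control signal well above background on that array. With both channels at background on the greater Cy3 array, no lower bound is given for the pool. With normexp and loess the mean log2 ratio was 0.14.

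On probe 1 of Fads3 the control signals were 69.5, 93.2, 51.8 and 46.7 and the GALP signals 118, 122, 74.5 and 54.7, which gave log2 ratios of 0.76, 0.39, 0.53 and 0.23. All 4 were above 0, the mean was 0.48 ± 0.14 (SD, n = 2) and the limma adjusted p was 0.447. With normexp and loess the mean was 0.02. Probe 2 was not well above background in any of the 8 channels, and its ratio of 0.91, -0.98, 0.23 and -1.13 followed the dye, with a mean Cy5 minus Cy3 difference of 1.62.

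**Figure D3:**
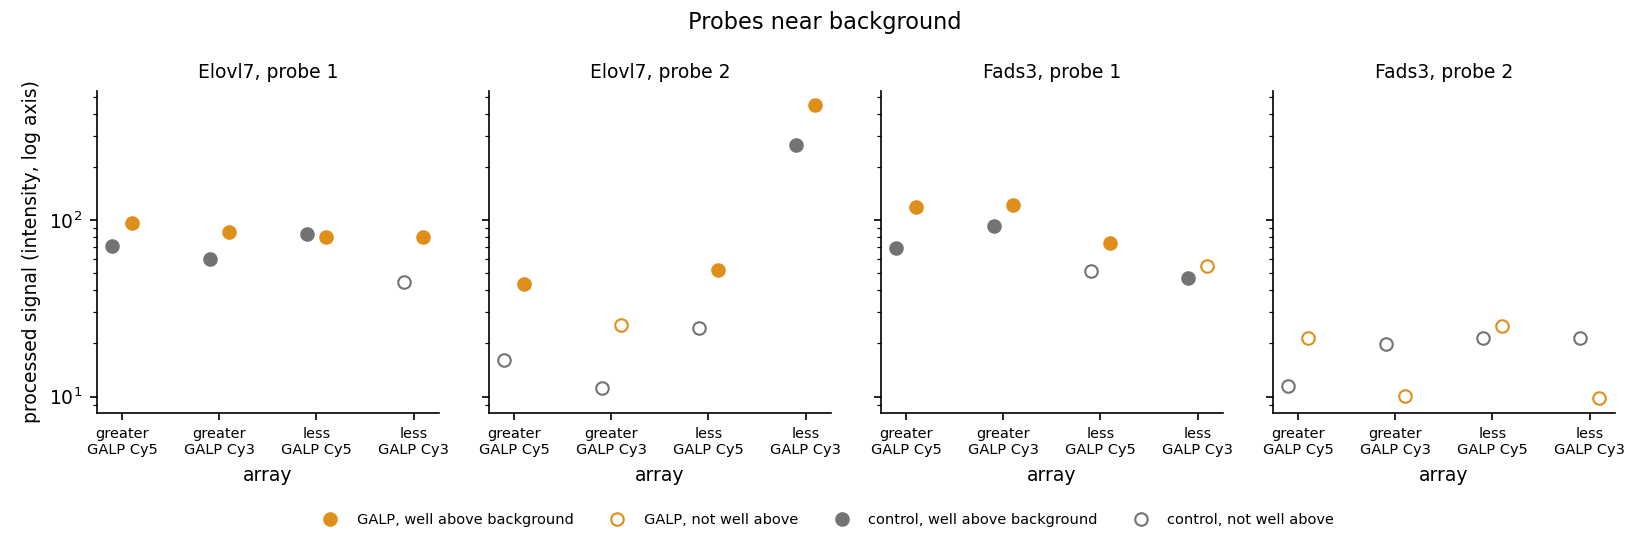
Processed signal (vertical axis, intensity on a log axis) of the control pool in grey and the GALP pool in orange on each of the 4 arrays (horizontal axis) for both probes of Elovl7 and Fads3. Open circles are not well above background. Both channels of Elovl7 probe 2 rise on the less Cy3 array, to 265 and 449, and no circle of Fads3 probe 2 is filled.

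Few members were called, but many shared a direction. Of the 9 probes well above background in every channel, which cover 8 genes, 6 were below 0 on all 4 arrays and 0 were above 0 on all 4. Over the 14445 probes of that kind, 16.0% were below 0 and 11.8% above 0 on all 4 arrays. By gene, 5 of the 10 were below 0 on all arrays (Elovl2, Elovl3, Elovl5, Elovl6 and Fads2), 1 was above (Fads3) and 4 were mixed. The median log2 ratio over the 10 genes was -0.04, against 0.0 over all 26518 genes, and that over the 8 genes with signal in every channel was -0.24, against -0.01 over 10666 such genes.

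The ratios also differed between the GALP pools. All 13 probes had a lower ratio in the less than in the greater weight loss pool, and 9 of 9 with signal in every channel did so in both dye orientations. Of all probes with such signal, 53.1% were lower in the less weight loss pool and 28.4% in both orientations. Among the probes with signal in every channel the difference was widest for Elovl3, at 0.62 on the log2 scale, followed by Scd2 at 0.40 and Elovl6 at 0.36, and it was 0.10 for Elovl1 and for Elovl5 probe 1. Each pool is 1 sample of 4 mice, so the difference between pools has no test, and it cannot be told apart from a difference between the mice that were pooled. Markers of pancreatic acinar cells split the same pools. Their summed GALP signals were 5613.9 and 8222 in the greater and 119269 and 125531.5 in the less weight loss pool, against 72027 to 93635 in control, and their part in the difference was not tested.

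**Figure D4:**
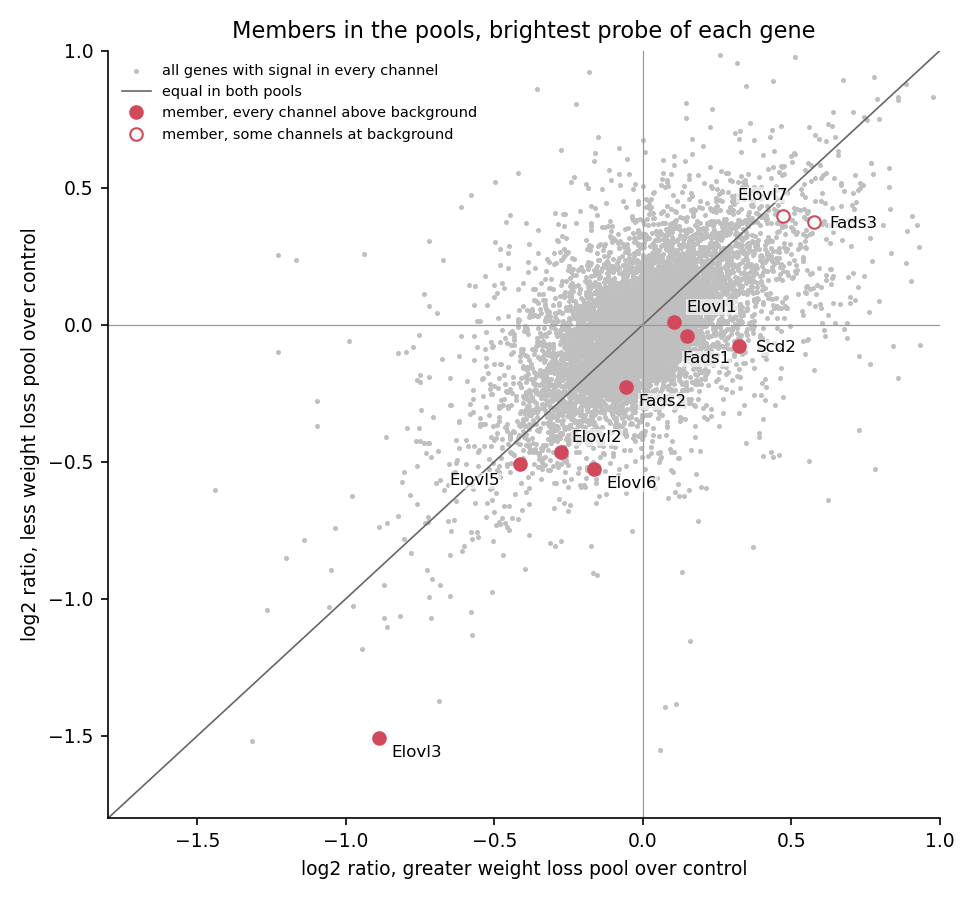
Log2 ratio over control in the greater (horizontal axis) and the less weight loss pool (vertical axis), with grey points for 10597 of 10666 genes with signal in every channel (the other 69 lie outside the axes) and red circles for the 10 members, open where some channels were at background. All 10 red circles lie below the line of equal ratios, and Elovl3 lies at -0.89 and -1.51.

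Promoter sequences were looked up in RefSeq (GRCm38.p6), which held windows from 250 bases before to 50 bases after a gene start for 7 of the 10 genes (9 windows). Elovl5 and Elovl6, the elongases below 0 on all arrays with 1 window each, are shown because regulators of lipid synthesis are known to read such elements. The window of Fads2, a desaturase below 0 on all arrays, is described below. Capitals mark a CACGTG E-box and CCAAT boxes (here read as ATTGG on the other strand) in Elovl5, at chr9:77917115-77917414 on the plus strand, and an AGGTCA nuclear receptor half-site (read as TGACCT) in Elovl6, at chr3:129532136-129532435 on the plus strand:
Elovl5: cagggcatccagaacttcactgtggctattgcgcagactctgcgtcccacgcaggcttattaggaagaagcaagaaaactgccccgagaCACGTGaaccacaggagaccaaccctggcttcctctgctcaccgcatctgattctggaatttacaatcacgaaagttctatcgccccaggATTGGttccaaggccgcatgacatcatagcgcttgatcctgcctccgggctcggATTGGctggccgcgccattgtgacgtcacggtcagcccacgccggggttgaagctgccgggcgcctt
Elovl6: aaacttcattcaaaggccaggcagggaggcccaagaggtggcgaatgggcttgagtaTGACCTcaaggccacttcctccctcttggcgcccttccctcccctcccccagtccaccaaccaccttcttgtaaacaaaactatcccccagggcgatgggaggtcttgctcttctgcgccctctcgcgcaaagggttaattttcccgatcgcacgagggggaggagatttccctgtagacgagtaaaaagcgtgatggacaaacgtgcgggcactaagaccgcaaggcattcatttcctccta

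The E-box of Elovl5 begins 161 bases before the start and was found in 1 of the 9 windows, against 7.15% of 32851 promoters. Its CCAAT boxes begin 71 and 17 bases before the start. This motif was found in windows of Elovl1, Elovl5 and Fads3, 3 of 9, against 37.4% of all promoters. The half-site was found in 2 of 9, Elovl1 and Elovl6, against 16.3%, and a GGGCGG box in 6 of 9, against 35.7%. The SREBP element TCACNCCAC was found in 0 of 9 windows and in 1.24% of all promoters. Both strands were searched. In a window of Elovl1 a GGGCGG match that begins 39 bases before the start overlaps a CCAAT match that begins 35 bases before it. A match is a description of letters and no evidence of binding.

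The genes that complete the elongation cycle and those that feed electrons to the desaturases had median log2 ratios close to 0. Over 7 lists of genes that work beside the members, 57 of 59 genes were on the array and 50 had signal on every array. By the rule of the methods 0 genes were higher and 1 was lower. Among 6 elongation cycle partners with signal, the median log2 ratio was -0.02, from -0.15 for Hsd17b12, the ketoacyl reductase, to 0.15 for Hacd4, a dehydratase, and 0 were called. Among 5 electron donors the median was -0.06, from -0.28 for the mitochondrial cytochrome Cyb5b to 0.16 for the reductase Cyb5r1, with 0 called. Of the other elongases and desaturases, 2 of 6 had signal, Fads6 at 0.0009 and the dihydroceramide desaturase Degs1 at 0.12.

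The supply of malonyl-CoA and NADPH, which elongases and fatty acid synthase share, held the 1 called gene. Fasn, fatty acid synthase, was called lower on 1 of its probes, with a mean log2 ratio of -0.88 ± 0.37 (SD, n = 2), and its probe 1 had -0.81 ± 0.33 and reached p under 0.01 from Feature Extraction on 3 of 4 arrays. With normexp and loess it was not called. The median over these 9 genes was -0.25, from -0.81 for Fasn to 0.15 for G6pdx, a producer of NADPH, and 5 of the 9 were below 0 on all 4 arrays. Over 6 acyl-CoA synthetases and binding proteins the median was -0.03, from -0.49 for Acsl3 to 0.21 for Acsl4. Over 11 genes of peroxisomal chain shortening, which trims very long chains, it was -0.02, from -0.20 for the import receptor Pex5 to 0.18 for the thiolase Acaa1a. Over 11 transcription factors and their cofactors it was -0.02, from -0.38 ± 0.18 for Srebf1, which encodes SREBP-1, to 0.16 for Hnf4a. None of the genes in these last 3 lists was called.

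**Figure D5:**
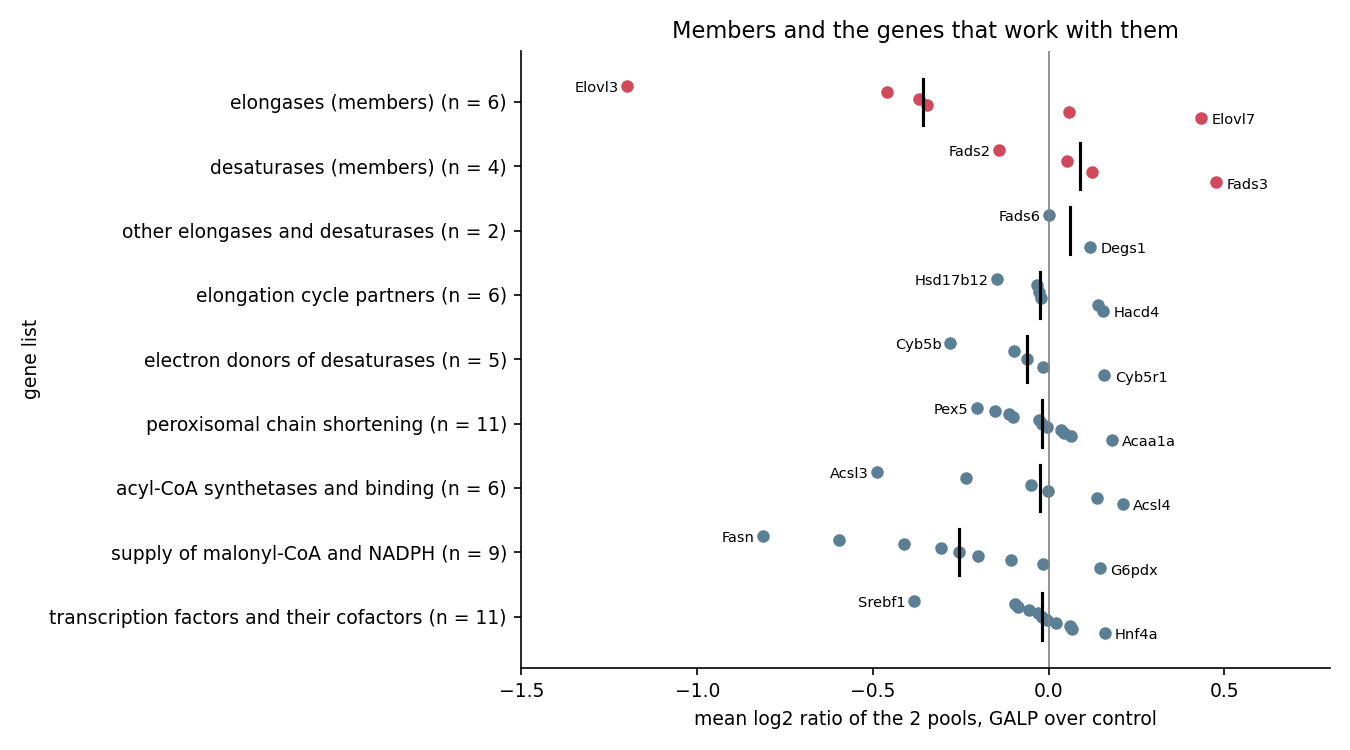
Mean log2 ratio of the 2 pools (horizontal axis) for the members in red and for genes with signal in 7 lists of partners and regulators in blue (vertical axis), 1 point per gene, with a black line at each median. The lowest and highest gene of each list are named. The elongases span -1.20 to 0.43 and the elongation cycle partners -0.15 to 0.15.

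Cell type markers were read beside these values, since the arrays measure whole liver and fewer cells of a type cannot be told apart from less RNA per cell. All 8 hepatocyte markers on the array were well above background. Their median log2 ratio was 0.03, from -0.38 for Tat to 0.17 for Cps1. Of the 8, 2 were below 0 and 2 above 0 on all 4 arrays. The adipocyte list, relevant because Elovl3 is expressed in fat, had a median of 0.20 in the 4 of 8 genes with signal, with summed GALP signals of 21868 to 27749.6 against 15097.5 to 20813 in control. Most of that sum came from Cidec, a lipid droplet protein, and Fabp4, a fatty acid binding protein. Their mean log2 ratios were 0.75 and 0.35. Those of Cidea and Adipoq were -0.22 and 0.06, but the pools had opposite signs. Cidea had -0.67 in the greater and 0.24 in the less weight loss pool, and Adipoq had 0.38 and -0.26. Lep, Retn and Ucp1 were not well above background in any channel. The Kupffer cell list had a median of 0.28, from -0.07 for Vsig4 to 0.87 for Marco, which was called higher. The sinusoidal endothelium list had 0.08, from -0.12 for Kdr to 0.74 for Lyve1, called higher on 1 of its probes. Kdr was below 0 on all 4 arrays. The stellate cell list had 0.29, from 0.07 for Lrat to 0.66 for Col1a1. The bile duct list had -0.12, from -0.46 for Krt19 to 0.10 for Spp1. In the stomach and intestine list Gkn2 and Tff1 were called lower, and Gkn1 and Vil1 were not well above background in any channel. The part of these shifts in the ratios of the members was not tested.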

How the data were processed

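The authors labelled RNA with Cy3 and Cy5 and scanned 4 dual-colour Agilent arrays. Background subtraction and LOWESS dye normalization by Feature Extraction (12.0.3.1 per the file headers, 11.0.1.1 in the submitters' processing notes) gave 3 deposited measures per spot: a processed intensity in either dye, the log10 ratio of Cy5 over Cy3, and a p-value for that ratio. In the labels the control carries the weight loss group of its array. The paper names a single control pool, and it was handled so. Acclimatization is 2 weeks in the labels and differs in the paper.

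Ratios were taken to log2 with control as the denominator. Outlier spots (232 to 319 of 43379 per array) were dropped, and spots of a probe, then the arrays of a pool, were averaged, which left the pools as replicates (n = 2). No spot was saturated, and precision is limited by the small number of arrays. limma 3.58.1 in R 4.3.3 (lmFit, eBayes, 1 residual degree of freedom) tested the pool ratios against 0, which leaves out the spread of the control. The background level set beside probe 2 of Elovl7 was the lowest control signal well above background on that array. Gene names followed a RefSeq table that held the accessions of 29416 probes (71.4%). The rule and the test were tested on simulated data. Alternatives were normexp (offset 50) with loess, centring, the deposited series table, no outlier filter, a signal filter, each dye orientation, each pool left out, other p-value, fold and summary rules, other limma settings, and the mean over probes.

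The members and lists were chosen with earlier results of these data known. The text names every probe of the members. Of each list of partners and regulators it names the called genes and those with the lowest and highest mean ratio. Of the marker lists only some genes are named. Values of some genes are not reported here. Other software was Python 3.11.15 with pandas 2.3.3, numpy 2.4.6, matplotlib 3.10.9 and scipy 1.17.1.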

Additional observations from a re-analysis of the deposited data

Results flagged for a closer look

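None of the 13 probes of the elongases and desaturases had both arrays of one GALP pool on one side of 0 and both arrays of the other pool on the opposite side. Of 86 probes of the members and of the partner genes with signal, 3 did, against 5.77% of the 14445 probes well above background in every channel, and the difference between the pools was not tested. Hacd1, a dehydratase of the elongation cycle, had a difference (greater minus less weight loss pool) of -0.11 on the log2 scale. Cyb5r4, a cytochrome b5 reductase, met this on 2 of its probes, with differences of 0.0913 and -0.47 that have opposite signs.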

How the results depend on the processing

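Of 131 values of single member probes under an alternative, 126 kept their sign and 0 called values changed sign. Leaving out a pool moves a mean of 2 by less than their SD by construction, and the series table held the same ratios. Of the remaining 92 values 74 moved by less than the SD between pools and 18 by more. Many of the 74 had no room to move. The runs with no outlier filter and with the signal filter left the ratios as they were. Centring shifted every mean by less than its SD. All 18 came from normexp and loess, the single dye orientations, the mean over probes and leaving out the less Cy3 array. Elovl3 kept its call under each alternative of the rule, with mean log2 ratios from -1.51 to -0.54, and the largest move was with normexp and loess. Normexp with loess, centring and the series table changed only the ratios, so the p-values of the rule stayed as deposited. Probe 1 of Elovl7 ranged from 0.05 to 0.68, with 0.78 for the mean over both its probes, and probe 1 of Fads3 from 0.02 to 0.64, both lowest with normexp and loess, and the cause was not tested. The count of member probes called lower was 2 with the arrays that carry GALP in Cy3 alone (Elovl3 and Elovl5 probe 1). The count called higher was 1 without the p-value (Elovl7 probe 2). With limma 2 member probes passed after normexp and loess (both of Elovl5), where 42 probes were higher and 53 lower in all. In any other fit 0 passed, the pool as a random block included, where 39 were higher and 67 lower. That fit took the 4 arrays as observations, with an estimated correlation of -0.389 between the arrays of a pool. A negative correlation makes its standard errors smaller, so these counts do not rest on the pools as replicates. Partner and regulator genes called lower numbered 0 with normexp and loess, 2 with either dye orientation alone, 3 where 1 array of a dye swap sufficed for the p-value and 4 without the p-value. Without the greater weight loss pool they numbered 3 and without the less weight loss pool 1, the median over the members was -0.15 and 0.02, and 1 member was called lower and 0 higher in both cases. The member genes below 0 on all arrays numbered 4 or 5, and the probes lower in the less weight loss pool 12 or 13. Leaving out the less Cy3 array and the comparison of the pools were alternatives chosen after seeing the data. No paired analysis was possible because both GALP pools share the control pool and each is 1 sample. The signals of Elovl7 and Fads3 near background limit what their ratios can show.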
